A study of Homo sapiens with 9 samples.

Results

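CDC42 is a small GTPase that switches between a GTP-bound and a GDP-bound state and directs actin filaments, filopodia and cell polarity. The 9 genes described here are CDC42, the 5 genes CDC42EP1 to CDC42EP5 for its effector proteins, also called Borg proteins, which bind active CDC42 and septins, and the 3 genes of the BAIAP2 family. BAIAP2, known as IRSp53, and its relatives BAIAP2L1 and BAIAP2L2 carry an IMD domain that bends membranes and an SH3 domain that recruits actin regulators. In polarised epithelia, hepatocytes included, CDC42 is known for its part in apical polarity.

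The members were taken by gene symbol from the rows of all 9 deposited tables, and all 9 were present among 26475 genes. The members were chosen by family with the fold changes of the replicated DHE comparison known, so the members' values there, and whether each was called, are given as a description, without p-values.

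RNA sequencing was done on polyA RNA of Hep3B, an established human liver cancer line, and every library came from cells kept under hypoxia for 6 h. A replicated set has 3 libraries treated with DMSO, the solvent, and 3 treated with a compound labelled DHE. A dose set has 1 library with DMSO, 1 with DHE at a dose labelled high and 1 with DHE at a low dose, as labelled. Which dose the replicated set received is not stated. No concentration, normoxic group or separate cultures are named in the labels, so spread and p-values cover the variation between these libraries, which may be technical.

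The libraries held 22167516 to 36267216 counts each. A count of 0 allows up to 3 counts, or 0.0827 to 0.135 CPM, which is a count scaled to library size. Of the hepatocyte markers all 6 were expressed. Their summed level was 9359 to 9867 TPM, a level scaled for transcript length and library total, in the DMSO replicates, 7869 to 8670 in the DHE replicates, and 31460, 14460 and 7445 in the DMSO, high and low libraries of the dose set. The sum is mostly ALB and SERPINA1 in the replicated set, where mean levels of APOA1 (782 and 967 TPM), TTR (37.2 and 51.8) and HNF4A (95.6 and 138) were higher with DHE. Of 14 leukocyte, endothelial and fibroblast markers 4 reached 1 TPM in any library, LYZ, PECAM1, COL1A1 and PDGFRB, and TYROBP, KDR, ACTA2 and DCN were at 0 in all 9. DHE replicate 1 stood apart, with a chi-square per gene of 30.2 against DHE replicate 2 and 35.8 against DHE replicate 3, where the latter pair gave 5.58.

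Promoter sequence was held for 7 of the 9 members in RefSeq's table for GRCh38.p14, and CDC42EP5 and BAIAP2L2 have no entry in it. CDC42EP1, CDC42EP2 and CDC42EP4 are the CDC42EP genes above 5 CPM whose CPM was higher in every DHE replicate than in any DMSO replicate. Their 250 bases upstream of the start site are shown. They read 5′ to 3′ on the gene's strand, and capitals mark each match, on either strand, to ACGTG or GCGTG, the core letters of the hypoxia-inducible factor motif. They lie at chr22:37560230-37560479 on the plus strand, chr11:65314616-65314865 on the plus strand and chr17:73312002-73312251 on the minus strand.
CDC42EP1: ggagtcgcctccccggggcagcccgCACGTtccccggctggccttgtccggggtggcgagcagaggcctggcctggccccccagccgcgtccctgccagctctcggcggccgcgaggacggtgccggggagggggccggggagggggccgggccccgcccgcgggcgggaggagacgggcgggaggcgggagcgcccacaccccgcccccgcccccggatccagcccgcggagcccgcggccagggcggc
CDC42EP2: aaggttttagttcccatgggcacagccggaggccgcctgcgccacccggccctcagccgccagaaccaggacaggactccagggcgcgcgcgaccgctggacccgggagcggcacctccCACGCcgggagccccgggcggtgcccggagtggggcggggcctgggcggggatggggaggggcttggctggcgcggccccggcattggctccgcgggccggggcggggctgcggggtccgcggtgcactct
CDC42EP4: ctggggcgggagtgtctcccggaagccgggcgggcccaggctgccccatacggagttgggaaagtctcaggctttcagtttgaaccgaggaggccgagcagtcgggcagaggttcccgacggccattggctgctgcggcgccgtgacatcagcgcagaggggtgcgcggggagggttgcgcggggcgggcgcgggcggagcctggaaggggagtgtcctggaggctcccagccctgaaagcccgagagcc
CDC42EP1 held 1 match to these core letters, CDC42EP2 held 1 and CDC42EP4 held 0, where 43.2% of 35116 promoters of the same length held at least 1. GGGCGG, the GC box letters, was found 6, 4 and 4 times in the respective windows on both strands together, and 42.6% of all promoters held it. A match is only a description of these letters.

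CDC42EP1 was the most abundant member in all 5 groups. In the DMSO replicates the mean levels were 227 TPM for CDC42EP1, 175 for CDC42, 138 for BAIAP2L1, 56.7 for CDC42EP4, 33.2 for CDC42EP5, 13.1 for BAIAP2L2, 8.25 for CDC42EP2, 7.18 for BAIAP2 and 0.147 for CDC42EP3. Ranges of neighbours in this order did not overlap over the 3 libraries, except for CDC42EP2 and BAIAP2. In the DHE replicates the upper 4 kept their order, at 275, 194, 142 and 73.7 TPM. Below them CDC42EP5 (12.8 TPM) overlapped with CDC42EP2 (10.7 TPM), and BAIAP2 (6.79 TPM) overlapped with BAIAP2L2 (5.43 TPM).

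**Figure D1:**
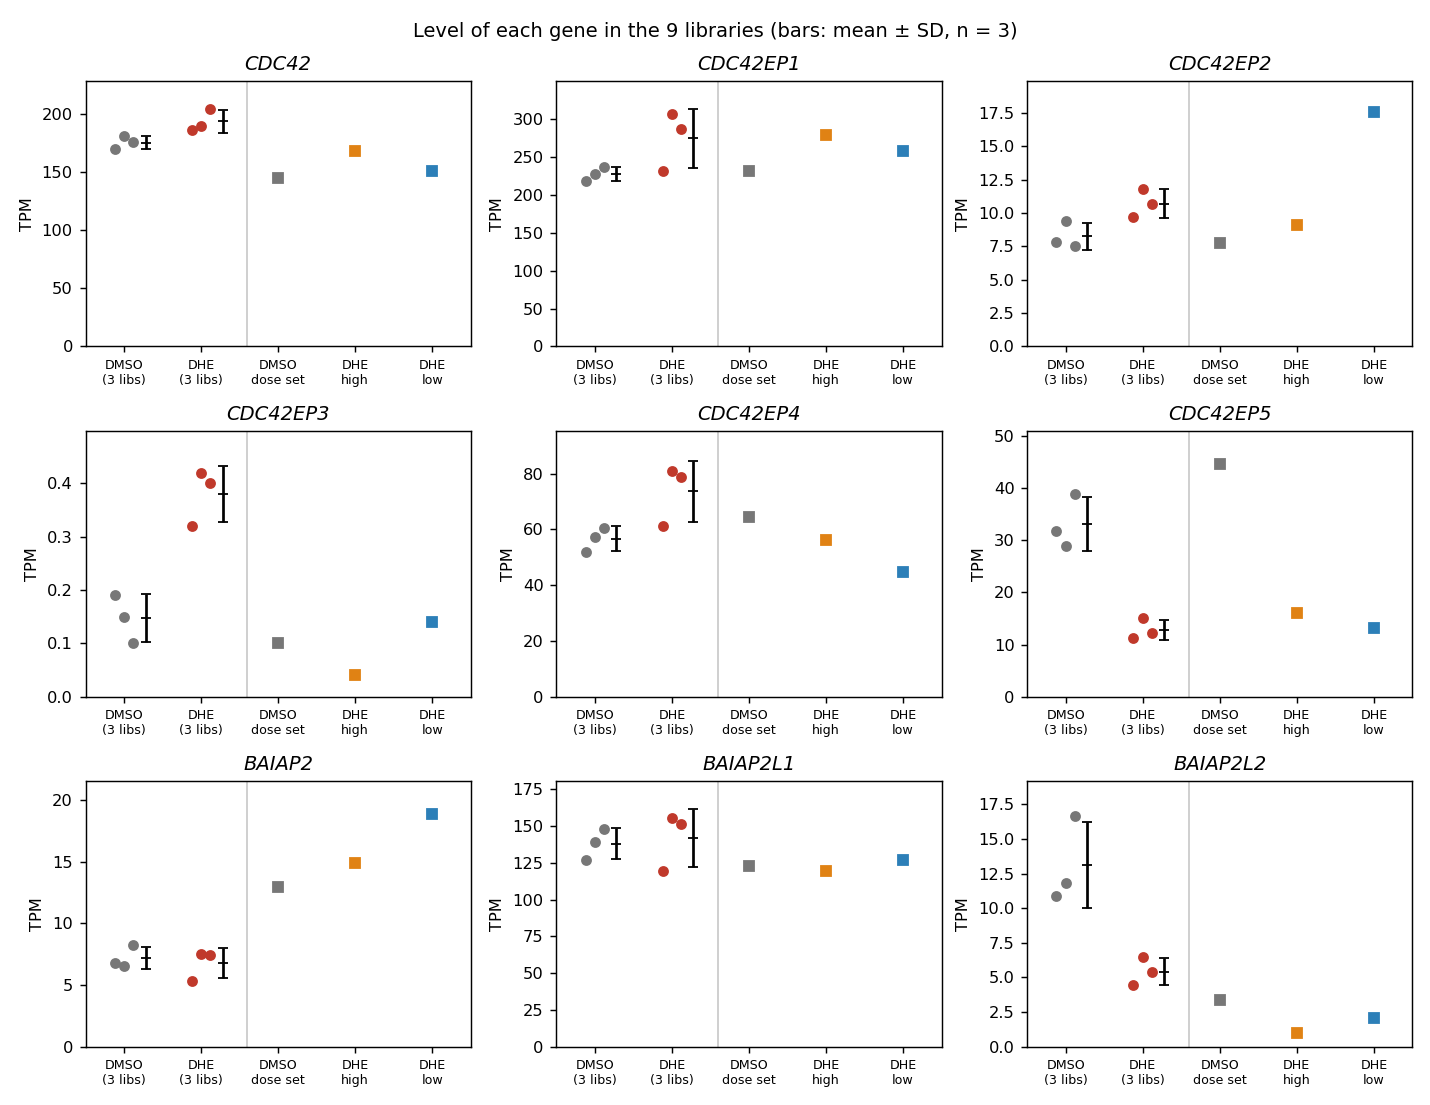
TPM of each of the 9 genes (vertical axes, each from 0) in the 9 libraries, with circles for the replicated set, squares for the dose set and bars for mean ± SD of 3 libraries. CDC42EP5 lies at 28.8 to 38.9 TPM in the DMSO replicates and 11.3 to 15.0 in the DHE replicates, and at 44.7, 16.0 and 13.3 TPM in the DMSO, high and low libraries of the dose set.

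CDC42EP5, which encodes Borg3, was lower with DHE in both sets. In the replicated set its CPM, scaled by TMM within the set, was 12.03, 10.1 and 13.99 with DMSO and 4.47, 5.07 and 4.08 with DHE. The highest DHE library stood well below the lowest DMSO library. The log2 fold change was -1.41 ± 0.15 (SE, n = 3 each), a 2.65-fold lower level, with a range of -1.52 to -1.28 when single libraries were omitted. Of all 14492 tested genes, 1.15% were called lower by at least 2-fold, CDC42EP5 and BAIAP2L2 among them, and nothing is read from that since the members were chosen with this contrast known.

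The dose set had libraries of its own, but with 1 per group it gives no replicate check, and its intervals cover counting error only. CDC42EP5 had 449 counts with DMSO, 148 in the library labelled high and 108 in that labelled low, or 17.5, 5.79 and 4.65 CPM. It was 3.03-fold lower in the high library, with a 95% exact binomial interval of 2.51 to 3.67. In the low library it was 3.77-fold lower (3.05 to 4.70). The low library was 1.25-fold below the high one, with an interval of 0.965 to 1.61 that includes no difference. Both DHE libraries were set against the same DMSO library.

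BAIAP2L2, known from epithelial cells and hair cell stereocilia, was also lower with DHE in both sets. Its CPM was 13.2, 13.0 and 18.5 in the DMSO replicates and 5.64, 6.71 and 5.74 in the DHE replicates. The groups lay apart, with DMSO replicate 3 above the other DMSO libraries. The log2 fold change was -1.31 ± 0.15 (SE, n = 3 each), or 2.47-fold, within -1.40 to -1.12 when each library was left out.

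BAIAP2L2 was scarce in the dose set, with 102 counts for DMSO, 27 for high and 51 for low, equal to 3.98, 1.056 and 2.20 CPM. The high library was 3.77-fold below DMSO, with a 95% exact binomial interval of 2.45 to 6.00. As a ratio of TPM + 1, which understates changes at such low levels, the high library's log2 ratio was -1.15 in place of -1.84. The low library was 1.81-fold below DMSO (1.28 to 2.59). The low library held 2.08-fold more than the high library (1.28 to 3.45), so the order of the labelled doses was the reverse of that for CDC42EP5, whose own interval included no difference. The starting level also differed between the sets, at 3.39 TPM in the dose-set DMSO library against 10.9 to 16.6 TPM in the DMSO replicates.

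Of the 8 members with at least 20 counts in a dose-set library, 2 were at least 2-fold lower in the high library, CDC42EP5 and BAIAP2L2, where 3.39% of 13468 genes were. In the low library 1 was, CDC42EP5, where 6.68% of genes were. Only CDC42EP5 of the 8 was at least 2-fold lower in both, as were 2.34% of all genes. In the low library 1 member, CDC42EP2, was at least 2-fold higher (2.96% of genes), and none was in the high library (0.928% of genes). Summed hepatocyte markers, given above, were also lower in both DHE libraries than in their DMSO library, although TTR (137 and 149 TPM) and HNF4A (94.5 and 101 TPM) were higher in the high library, and their part in these ratios was not tested.

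**Figure D2:**
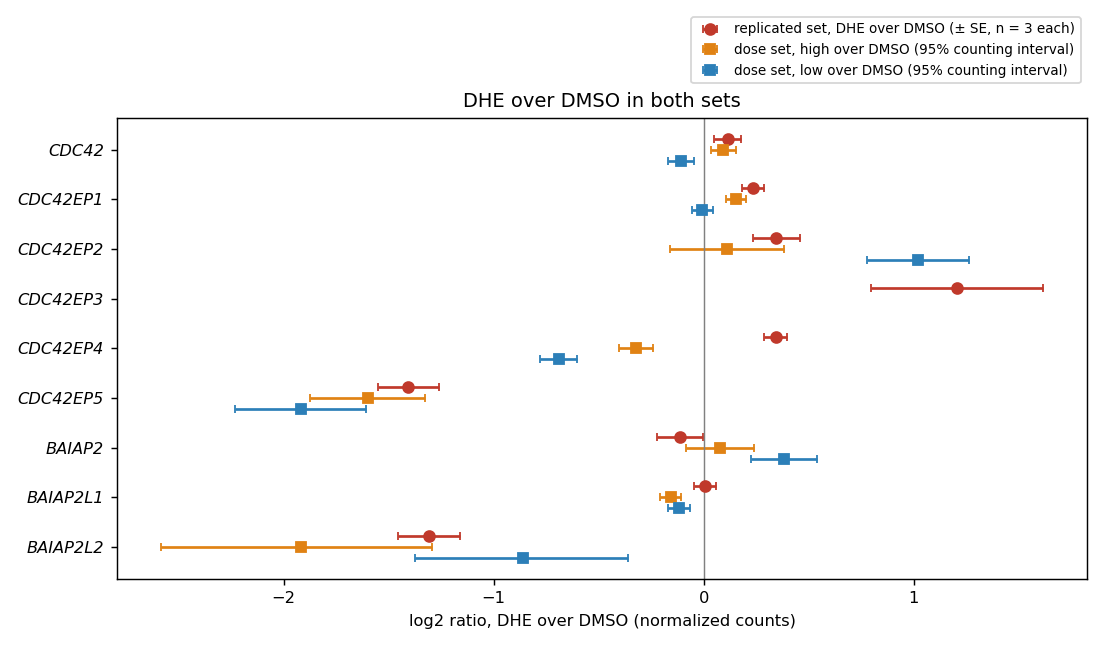
Log2 ratio of DHE over DMSO (horizontal axis) for the 9 genes, with SE for the replicated set and 95% counting intervals for the single libraries of the dose set. CDC42EP5 and BAIAP2L2 lie left of 0 in all 3 comparisons, CDC42EP4 lies right of 0 in the replicated set and left of it in the dose set, and CDC42EP3 has no dose-set point since it had at most 9 counts there.

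CDC42EP1, or Borg5, an effector bound to septin filaments and studied in endothelial cells, was slightly higher with DHE in the replicated set. Its CPM was 268, 254 and 266 with DMSO and 297, 322 and 308 with DHE, without overlap. In TPM the groups overlapped, with DHE replicate 1 at 231 TPM and DMSO replicate 3 at 236 TPM. The log2 fold change was 0.23 ± 0.05 (SE, n = 3 each), or 1.18-fold. The dose set had 274 CPM with DMSO, 305 in the high library and 272 in the low library. The high library was 1.11-fold above DMSO (95% exact binomial interval 1.076 to 1.15), and the low library was at 0.995 of it (0.961 to 1.03). With library totals alone the low library's log2 ratio was 0.13.

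CDC42EP4, or Borg4, went opposite ways in the 2 sets. Its CPM was 96.4, 96.6 and 102 in the DMSO replicates and 119, 128 and 128 in the DHE replicates, so all DHE libraries were higher. The log2 fold change was 0.34 ± 0.05 (SE, n = 3 each), or 1.27-fold. The dose set went from 114 CPM with DMSO to 91.5 in the high library and 70.9 in the low library. The high library was thus 1.25-fold below DMSO (95% exact binomial interval 1.18 to 1.32) and the low library 1.61-fold below it (1.52 to 1.72).

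CDC42EP2, or Borg1, had 8.88, 9.70 and 7.82 CPM in the DMSO replicates and 11.5, 11.5 and 10.6 CPM in the DHE replicates. The groups did not overlap, and the log2 fold change was 0.34 ± 0.11 (SE, n = 3 each). The low library of the dose set stood out, with 401 counts against 218 with DMSO and 235 in the high library. That was 2.03-fold above DMSO (95% exact binomial interval 1.72 to 2.40) and 1.88-fold above the high library (1.59 to 2.22). The high library was 1.08-fold above DMSO, with an interval of 0.894 to 1.305.

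CDC42EP3, or Borg2, was close to the limit of detection. It had 22, 17 and 11 counts in the DMSO replicates and 28, 37 and 38 in the DHE replicates. All 3 DHE libraries held more, with 1.05 to 1.17 CPM against 0.302 to 0.665, and the fitted log2 fold change was 1.21 ± 0.41 (SE, n = 3 each). Without DMSO replicate 1 it was 1.501, without DMSO replicate 3 it was 0.96, and on a log2(TPM + 1) scale 0.27. The dose set held 9, 3 and 9 counts with DMSO, high and low, too few for a ratio here.

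CDC42 itself had 209.8, 203 and 199 CPM in the DMSO replicates and 241, 200.2 and 221 in the DHE replicates, and the groups overlapped. Its log2 fold change was 0.11 ± 0.06 (SE, n = 3 each). Among the dose libraries the high one was 1.07-fold above DMSO (95% exact binomial interval 1.02 to 1.11). The low library was 1.078-fold below it (1.03 to 1.13) with TMM scaling, but with library totals alone its log2 ratio was 0.03, in the other direction.

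BAIAP2, the adaptor that links CDC42 and RAC1 to WAVE and Ena proteins, overlapped between the replicated groups. It had 13.2, 11.8 and 14.6 CPM with DMSO and 11.1, 12.6 and 12.9 CPM with DHE, a log2 difference of -0.11 ± 0.11 (SE, n = 3 each). Its level with DMSO differed between the sets, at 6.57 to 8.22 TPM in the DMSO replicates and 12.9 TPM in the dose-set library. Within the dose set it had 24.1 CPM with DMSO, 25.4 in the high library and 31.4 in the low library. The low library was 1.303-fold above DMSO (95% exact binomial interval 1.17 to 1.45), while the high library's ratio of 1.056 had an interval of 0.944 to 1.18.

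BAIAP2L1, or IRTKS, which is known to link the bacterial receptor Tir to actin assembly, was nearly level in the replicated set. It had 283, 282 and 301 CPM with DMSO and 279.5, 295 and 295 with DHE, with a log2 difference of 0.01 ± 0.05 (SE, n = 3 each). The high library was 1.12-fold below the DMSO library of its set (95% exact binomial interval 1.077 to 1.16). The low library was 1.084-fold lower (1.05 to 1.12) with TMM, but the log2 ratio was 0.02 with library totals alone. Library totals in place of TMM moved the median log2 ratio of all genes by 0.0747 in the high library and by 0.14 in the low library, and ratios here are relative to TMM.

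As a description, 4 of the 9 members were called higher and 2 lower in the replicated set by edgeR's quasi-likelihood test, where 13.4% and 12.8% of all 14492 tested genes were. CDC42, BAIAP2 and BAIAP2L1 were not called. CPM did not overlap between groups for the same 4 higher and 2 lower members, where 41.6% of all genes did not (20.8% higher and 20.8% lower). CDC42EP3 lost its call whichever library was left out, and CDC42EP2 lost it without any library but DMSO replicate 2. With limma on log2(TPM + 1) the 2 called members were CDC42EP5 and BAIAP2L2, and TPM of CDC42EP1, CDC42EP4 and BAIAP2L1 was lower in DHE replicate 1 (231, 61.2 and 120 TPM) than in DHE replicates 2 and 3.

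Within the CDC42EP family the shares of CDC42EP5, CDC42EP1, CDC42EP4 and the scarce CDC42EP3 did not overlap between the replicated groups, and those of CDC42EP2 did. Shares add up to a fixed total, so a smaller CDC42EP5 share by itself makes the other shares larger. CDC42EP5 took 10.2 ± 1.20% of the summed family TPM in the DMSO replicates and 3.46 ± 0.281% in the DHE replicates (SD, n = 3 each). CDC42EP1 took 69.9 ± 0.892% and 73.8 ± 0.0874%, and CDC42EP4 17.4 ± 0.544% and 19.8 ± 0.460%. The family sum was 326 ± 16.9 TPM with DMSO and 372 ± 52.2 TPM with DHE. CDC42EP5 in the dose set made up 12.8% with DMSO, 4.45% for high and 3.98% for low, of sums of 348, 360 and 333 TPM.

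In the BAIAP2 family BAIAP2L1 made up 87.3 ± 1.44% of the summed TPM in the DMSO replicates and 92.1 ± 0.342% in the DHE replicates (SD, n = 3 each). BAIAP2L2 made up 8.20 ± 1.22% and 3.50 ± 0.267%, and BAIAP2 4.53 ± 0.317% and 4.38 ± 0.210%. The level of BAIAP2L1 itself was nearly the same, at 138 and 142 TPM, so its larger share goes with the smaller BAIAP2L2 share. BAIAP2 exceeded BAIAP2L2 in every library of the dose set, with 9.26%, 10.99% and 12.8% for DMSO, high and low against 2.43%, 0.724% and 1.41%. The order of these 2 genes in the DMSO libraries thus differed between the sets.

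**Figure D3:**
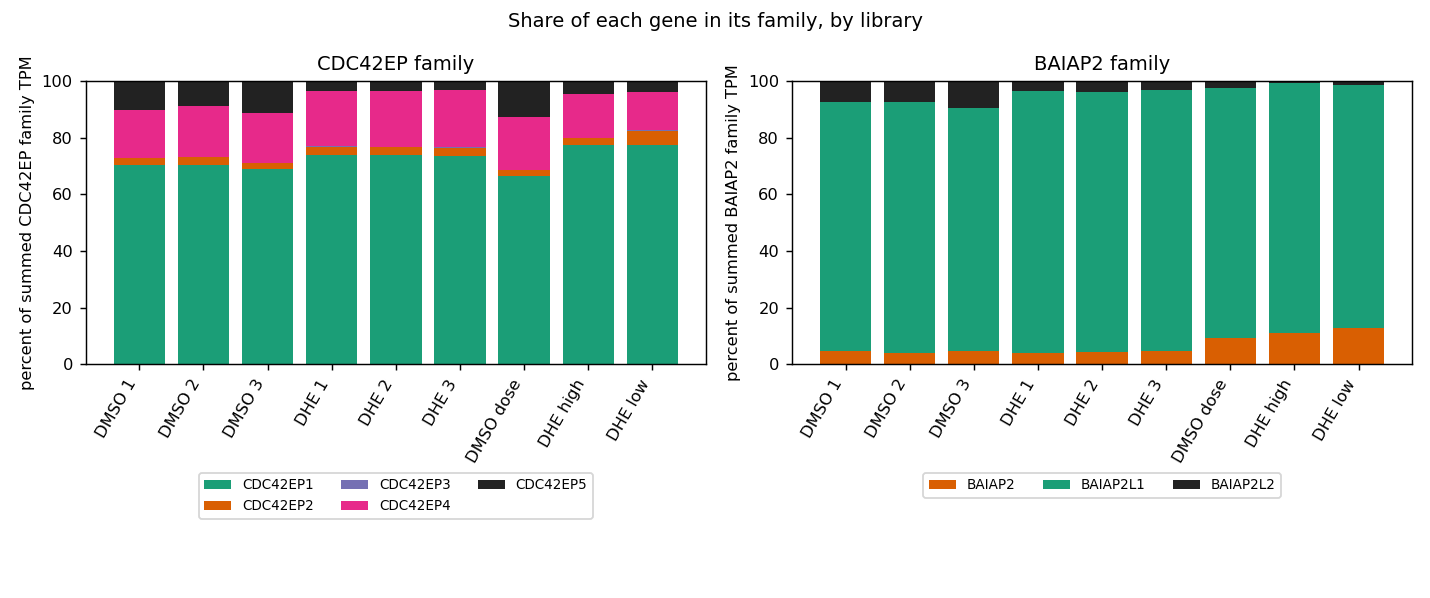
Stacked bars give the percent of the summed TPM of the CDC42EP family (left) and the BAIAP2 family (right) that each gene takes in each of the 9 libraries. The black part, CDC42EP5 on the left and BAIAP2L2 on the right, is smaller in every DHE library than in the DMSO libraries of its set.

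RSEM weights a gene's length by the shares of its transcripts, so that length reads out isoform use. Lengths come from the same libraries as the values known when the members were chosen, and are given as a description, without p-values. The tables list 3 transcripts for CDC42, 4 for BAIAP2 and 4 for CDC42EP3, and 1 for each other member. CDC42 had a length of 2175.78, 2176.82 and 2176.08 bases in the DMSO replicates and 2174.25, 2171.67 and 2171.77 in the DHE replicates. All DHE libraries were thus shorter, with a mean difference of -0.168%. Dose-set lengths were 2173.55, 2175.41 and 2173.46 bases for DMSO, high and low, with no common direction.

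BAIAP2 had lengths of 3251.56 to 3278.44 bases in the DMSO replicates and 3271.41 to 3278.78 in the DHE replicates, with overlap. Its dose-set lengths were 3254.91, 3232.62 and 3243.92 bases for DMSO, high and low. CDC42EP3 had 5529.31, 5525.72 and 5535.55 bases in the DMSO replicates and 5056, 5188.2 and 5056 in the DHE replicates. All DHE libraries were shorter, and these lengths rest on the 11 to 38 counts given above. The dose set gave 5715, 5715 and 5056 bases for DMSO, high and low, from at most 9 counts each. As a description, none of the 3 members was called by limma on log2 length, where 0.014% of 7132 genes were, which is CALCRL alone, named after its value was seen, and 604 had an unadjusted p under 0.05. Without DHE replicate 2 CDC42EP3 was among 8 genes called. DHE replicates 1 and 3 had the same length of 5056 bases, from 28 and 38 counts, so that call rests on no spread between them.

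**Figure D4:**
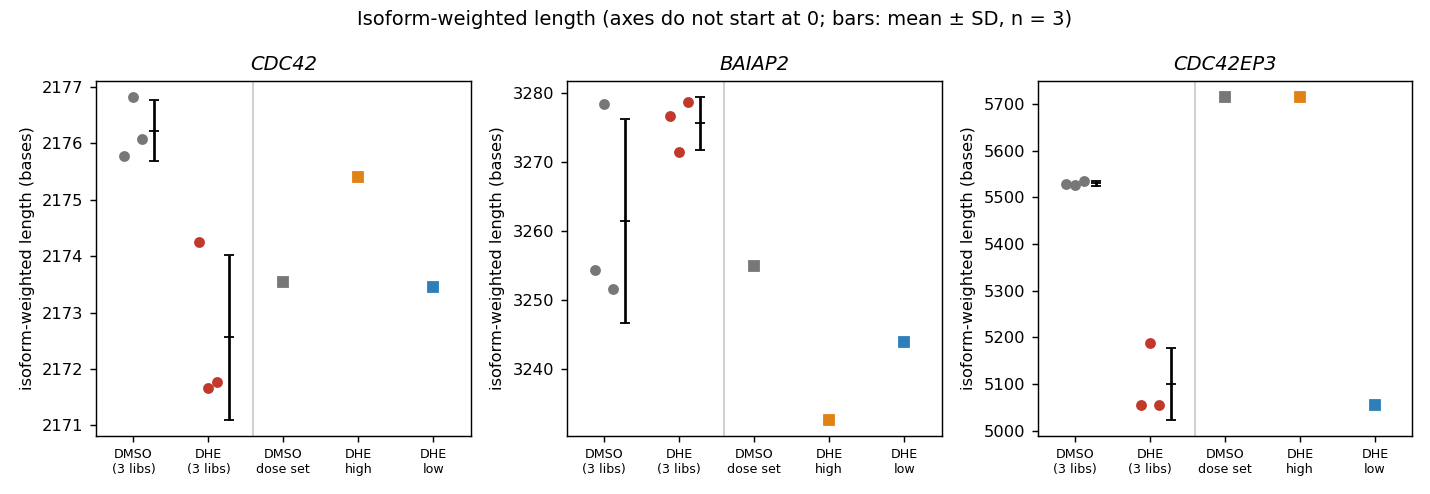
Isoform-weighted length in bases (vertical axes, which do not start at 0) of the 3 members with several transcripts, by library, with mean ± SD of 3 libraries. CDC42 spans only 2171.67 to 2176.82 bases over all libraries, and BAIAP2 overlaps between the replicated groups.

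Genes around CDC42 were taken from 7 lists of regulators, effectors and partners. The lists were drawn up with earlier results of these data known, so their counts, shares and p-values are given as a description. Of 110 tested genes 15 rose and 24 fell with DHE in the replicated set by edgeR's quasi-likelihood test. That is 35.5% against 26.2% of all tested genes, of which 13.4% were called higher and 12.8% lower. Their median log2 fold change was -0.01, and that of all genes was -0.0033. Leaving out each library gave 10 to 17 higher and 18 to 25 lower, the 10 being without DMSO replicate 3. With limma on log2(TPM + 1) 0 were higher and 4 lower, WAS and DLG4 among them.

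Of 16 exchange factors, which load GTP onto CDC42, 3 rose and 2 fell (median 0.06), or 31.2% against 26.2% of all tested genes. FGD4, or frabin, rose 1.31-fold, FGD6 1.22-fold and DOCK11, a CDC42 exchange factor of the DOCK family, 1.297-fold. DOCK6 fell 1.33-fold and the intersectin gene ITSN1 1.18-fold. DOCK11 lost its call without DHE replicate 1, DHE replicate 2, DMSO replicate 1 or DMSO replicate 3 (edgeR adjusted p up to 0.0972), and ITSN1 without DMSO replicate 2 (0.0607).

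Of 12 genes for GTPase-activating proteins, which switch CDC42 off, and dissociation inhibitors 3 rose and 2 fell (median -0.20). That is 41.7% against 26.2% of all tested genes. ARHGAP21 and ARHGAP17 rose 1.22-fold each and ARHGAP32 1.19-fold. SRGAP2, whose protein has an inverse F-BAR domain, fell 1.24-fold, and ARHGAP1 1.16-fold. ARHGAP32 lost its call without DHE replicate 2, DHE replicate 3, DMSO replicate 1 or DMSO replicate 3 (edgeR adjusted p up to 0.0996), and ARHGAP1 without DMSO replicate 2 (0.0538).

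Of 28 other CDC42 effectors 3 rose and 4 fell (median -0.01). These 7 of 28 are a slightly smaller share than the 26.2% called among all tested genes. WAS, the Wiskott-Aldrich syndrome gene of blood cells, was scarce and fell from 0.996 ± 0.0830 to 0.290 ± 0.163 CPM (SD, n = 3 each, edgeR adjusted p = 0.0155). Of 5 leukocyte markers LYZ alone reached 1 TPM and TYROBP was at 0. Their sum was 48.1 to 54.6 TPM in the DMSO replicates, 36.6 to 40.6 in the DHE replicates, and 133, 127 and 89.4 in the dose set, and its part in WAS was not tested. TRIP10, or CIP4, fell 1.15-fold, the formin gene FMNL3 1.22-fold, and CDC42SE1 rose 1.14-fold. PAK2 and MAP3K11, both kinase genes, rose 1.14-fold each and the scaffold gene IQGAP3 fell 1.18-fold. Calls were lost for PAK2 without DHE replicate 3, DMSO replicate 2 or DMSO replicate 3 (edgeR adjusted p up to 0.113). They were lost for MAP3K11 without DHE replicate 2, DHE replicate 3, DMSO replicate 1 or DMSO replicate 3 (up to 0.0887), and for IQGAP3 without DHE replicate 1 or any 1 DMSO replicate (up to 0.146). Calls were lost for WAS without DHE replicate 2 or DMSO replicate 3 (edgeR adjusted p up to 0.0620), for FMNL3 without DMSO replicate 2 (0.0603) and for CDC42SE1 without DMSO replicate 2 or DMSO replicate 3 (up to 0.0641).

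Of 19 partners of the BAIAP2 proteins and related IMD proteins 8 fell and 1 rose (median -0.05). That is 47.4% against 26.2% of all tested genes. DLG4, the PSD-95 scaffold gene, had 36.7 ± 2.31 CPM with DMSO and 22.5 ± 1.96 CPM with DHE (SD, n = 3 each). It fell 1.63-fold (edgeR adjusted p = 9.80e-05). EPS8L1, of the EPS8 family of actin regulators, fell 1.44-fold, MTSS1, itself an IMD protein gene, 1.32-fold, and ESPN, the actin bundler of microvilli, 1.28-fold. The gene that rose was MTSS2, deposited as MTSS1L, the closest relative of MTSS1, at 1.19-fold. Its dose-set log2 ratio was -0.41 for high and -0.86 for low, the opposite direction. Among the other list genes named here FGD6 (-0.08 and -0.26), ITSN1 (0.14 and 0.11) and ARPC1B (0.07 and 0.20) also reversed in both libraries. Most of the others kept their direction in both.

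In the Arp2/3 complex, which nucleates branched actin, 3 rose and 1 fell of 9 genes (median 0.03). That is 44.4% against 26.2% of all tested genes. ACTR3 and ARPC5 rose 1.21-fold and ARPC4 1.19-fold, whereas ARPC1B fell 1.19-fold. Of 11 septin genes, whose proteins the Borg effectors bind, 0 rose and 2 fell (median -0.03), or 18.2% against 26.2% of all tested genes. The septin genes that fell were SEPTIN10, 1.23-fold, and SEPTIN8, 1.22-fold, both deposited under the older SEPT symbols. SEPTIN8 was not called without DHE replicate 2, DMSO replicate 1 or DMSO replicate 2 (edgeR adjusted p up to 0.0741).

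**Figure D5:**
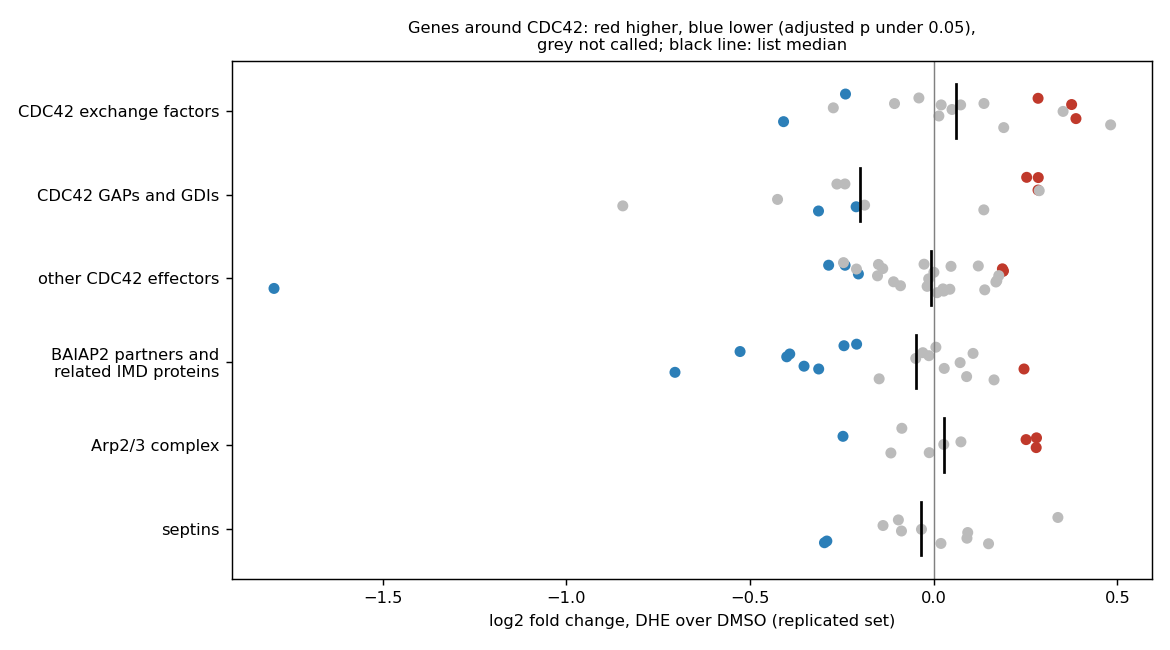
Log2 fold change of DHE over DMSO in the replicated set (horizontal axis) for the tested genes of 6 lists, 1 point per gene, red where called higher, blue where called lower and grey otherwise, with the list median as a black line. WAS and DLG4 lie farthest left of the called genes, and list medians lie between -0.20 and 0.06.

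Patterns most like those of the leading members were sought over all 9 libraries among 10916 genes, as a description, since libraries share sets and treatments. For CDC42EP5 the highest Pearson r of log2 CPM belonged to ST6GALNAC6 (0.981), a sialyltransferase gene, LRFN1 (0.976), a synaptic adhesion protein gene, and NDUFV1 (0.972), of respiratory complex I. Log2 fold changes in the replicated set were -0.90 for ST6GALNAC6, -1.17 for LRFN1 and -0.34 for NDUFV1, against -1.41 for CDC42EP5. LRFN1 went from 4.34, 5.21 and 5.59 TPM to 2.13, 2.57 and 2.17 TPM in the replicated set. The dose set gave LRFN1 5.84, 2.63 and 2.04 TPM for DMSO, high and low.

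For BAIAP2L2 the most similar genes were MCCC1 (0.987), of leucine breakdown, ARIH2 (0.986), a ubiquitin ligase gene, and ANO9 (0.985), of the anoctamin family. Their differences were smaller, with log2 fold changes of -0.29, -0.19 and -0.44 in the replicated set against -1.31 for BAIAP2L2. All 3 were also lower in the dose-set DMSO library than in the DMSO replicates, as was BAIAP2L2. For MCCC1 these levels were 24.7 TPM against 35.2, 38.9 and 38.1 TPM.

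In GRCh38.p14 CDC42EP5 lies on chromosome 19 from 54465026 to 54473296 and BAIAP2L2 on chromosome 22 from 38084900 to 38110967, and neither span overlaps another gene of the RefSeq table. CDC42EP1 is on chromosome 22 as well, from 37560480 to 37569405. CDC42EP2 lies on chromosome 11 from 65314866 to 65322417, CDC42EP3 on chromosome 2 from 37641944 to 37672949, CDC42EP4 on chromosome 17 from 73283624 to 73312001 and CDC42 on chromosome 1 from 22052709 to 22101360. BAIAP2 (chromosome 17, 81035151 to 81117434) overlaps AATK, and BAIAP2L1 (chromosome 7, 98291650 to 98401090) overlaps BRI3. The strand setting of the counting is not known, so reads in shared stretches cannot be assigned with certainty.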

How the data were processed

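PolyA RNA of 9 hypoxic Hep3B libraries was sequenced, and groups and replicate numbers come from the sample titles. The deposited RSEM tables give an expected count per gene, an estimated read number with no normalization, per the file headers. TPM, scaled for length and library total, is given per the file headers, as is each gene's isoform-weighted length in bases, deposited by the authors. Per the submitters' processing notes, GRCh38 was the genome build. For aligner and versions: not given in the sources used here.

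Expected counts were rounded. By transcript accession 25653 of 26475 genes matched RefSeq (GRCh38.p14). DHE and DMSO replicates were compared with edgeR 4.0.16 (R 4.3.3; TMM, default filter, two-sided quasi-likelihood test, Benjamini-Hochberg over all tested genes, threshold 0.05), and log2 lengths with limma 3.58.1. The SE was taken from the F statistic. Dose-set log2 ratios used TMM with a prior count of 2, and printed folds are ratios of scaled counts. Scripts were tested on simulated data. Alternatives were DESeq2 1.42.0, limma on log2 TPM (pseudocounts 1 and 0.1), other scalings and filters, left-out libraries and the replicate number as a block. Members and lists were chosen with earlier results of these data known. Of the 7 lists 1 enters only the summed counts and is not reported here. Named genes are the members, up to 4 called genes per list by smallest p, every gene of a count of at most 5 in either direction, and the 3 most similar genes per leading member above 5 CPM. Figures used matplotlib 3.10.9.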

Additional observations from a re-analysis of the deposited data

Results flagged for a closer look

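CDC42EP4 was higher in all 3 DHE replicates (log2 fold change 0.34) and lower in both DHE libraries of the dose set, with log2 ratios of -0.322 for high and -0.69 for low. In CPM BAIAP2 was below the DMSO mean in all 3 DHE replicates, with overlapping groups and a log2 fold change of -0.11. In TPM only DHE replicate 1 was below that mean. In the dose set BAIAP2 had log2 ratios of 0.0777 for high, with an interval that includes no difference, and 0.38 for low. Both genes were picked out because their CPM lay on opposite sides of DMSO in the 2 sets, whose doses may differ, and the difference between sets was not tested. Summed hepatocyte markers also differed, with 31460 TPM in the dose-set DMSO library against 9359 to 9867 TPM in the DMSO replicates.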

How the results depend on the processing

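Counts of genes called higher and lower over all genes, 1945 and 1858, and over the 7 lists, 15 and 24, stayed within 1.5 times under DESeq2, other scalings and filters, the fit of all 9 libraries and each left-out library (1329 to 2032 higher and 1242 to 1948 lower over all genes, 10 to 17 and 18 to 25 in the lists). They moved with limma on log2(TPM + 1), to 352 higher and 362 lower over all genes and 0 and 4 in the lists, and on log2(TPM + 0.1), to 115 and 146 and to 0 and 2, and the cause was not tested. Called members numbered 6, with 2 and 3 by limma on log2(TPM + 1) and log2(TPM + 0.1) and 4 to 5 without each library. The count of genes called for isoform-weighted length, 1, became 0 with a mean of at least 200 counts and 3 to 11 when each library was left out. Of 135 member fold changes under alternatives 127 moved by less than the spread between replicates, and 4 changed sign, all of BAIAP2L1 near 0 (-0.0098, -0.0069, -0.0045 and -0.0029 without 1 library, up to 0.0374 without DMSO replicate 3). In the dose set 12 of 48 ratios moved beyond their counting interval, under library totals or TPM + 1, among them CDC42EP1 in the low library, from -0.01 to 0.13 and 0.15. A further 4 changed sign, those of CDC42 and BAIAP2L1 in the low library, at 0.0332 and 0.0248 with library totals and 0.0533 and 0.0448 for TPM + 1.

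The replicate number as a block gave 2250 higher and 2186 lower genes, 18 and 25 in the lists, 5 called members and 0 genes for length. Same-numbered libraries had correlations of deviations of 0.17, 0.06 and -0.06, and not every library correlated best with its own number. With 3 libraries per group these values cannot decide whether same-numbered libraries were paired, and the labels give only a number. Depth limits CDC42EP3 in all libraries and BAIAP2L2 in the dose set, where it had 27 to 102 counts.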
